A study of Mus musculus with 6 samples.

Results

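Siglecs are cell-surface lectins of the immunoglobulin superfamily that bind sialic acid, the sugar that caps many glycans of vertebrate cells. Most of them carry inhibitory tyrosine motifs in the cytoplasmic tail that recruit phosphatases and dampen immune receptors, whereas a few pair with an activating adaptor. Siglec1 (CD169, sialoadhesin) is the exception in size and in wiring: it is a long adhesion receptor of macrophages without such motifs, and it is known to be induced by interferon. The genes examined here were 6 mouse Siglec receptors, Siglec1, Cd22, Cd33, Siglece, Siglecg and Siglech, taken by symbol from the 36870 distinct symbols of the deposited expression table. All 6 were listed, each in a single row, and 5 of them reached the mean of 0.1 RPKM over the 6 libraries that was required for a test, as did 13266 genes in all. Siglech did not.

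The libraries were made from C57BL/6 mouse bone marrow mesenchymal stem cells (BMMSCs), grown from the plastic-adherent cells of flushed femurs and tibias and labelled as passage 2, where the methods state passage one. A group of 3 control libraries came from cells given a non-targeting siRNA, per the treatment protocol (the sequencing methods speak of vehicle), and a group of 3 libraries came from cells given siRNAs against both Tet1 and Tet2, the enzymes that oxidize 5-methylcytosine. No label gives the age of the mice or says whether replicates were separate cultures, so p-values measure the spread between these libraries, which may be technical. RPKM divides reads by gene length and library size, so that levels of different genes can be compared. As a check of the labels, Tet2 ranged from 2.57 to 4.08 RPKM across the control libraries and from 0.202 to 0.358 RPKM across the siRNA libraries, and Tet1 was at or below 0.098 RPKM throughout. The depth, estimated from the steps of the low values, was about 32400000 to 37400000 reads in the control and 35500000 to 38600000 reads in the siRNA libraries.

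The labelled cell type was checked against marker lists, because Siglecs are receptors of blood cells. Macrophage RNA was abundant in every library. The 14 macrophage markers summed to between 8253 and 10921 RPKM in the control libraries and between 15916 and 18775 RPKM in the siRNA libraries, with 6 higher, 3 lower and 5 not passing the test. The sum is led by Lyz2 (lysozyme), and Csf1r, the receptor that macrophages need for survival, averaged 499.5 ± 20.5 RPKM (SD, n = 3) in the control and 603.9 ± 22.4 RPKM in the siRNA libraries. Of the 14 stromal markers, 11 were tested, of which 9 were lower and 1 was higher, and their sum went from between 1007 and 1545 RPKM to between 190.9 and 323.0 RPKM. Beside these counts, 14.7% of all genes tested were higher and 29.8% lower. The stromal markers Thy1 and Lepr were near the lowest listed values. In these bulk libraries, fewer cells of a type and less RNA per cell cannot be told apart.

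Siglec1 was by far the most abundant of the 6 receptor genes in the control libraries and fell in Tet1/Tet2 siRNA-treated BMMSCs, whereas Cd22 and Cd33 were higher. Siglece and Siglecg, both at low levels, were lower. All 5 genes tested passed limma's test at 0.05 after Benjamini-Hochberg adjustment, 3 lower and 2 higher, against a background of 44.5% of all genes tested (29.8% lower and 14.7% higher). Only Siglec1 among them also passed a pair of thresholds after those of the study, here the raw p at 0.05 and a change of more than 2-fold on the scale used, which 6.58% of all genes passed (5.63% lower). The 5 genes had a median log2 fold change of -0.42, where that of all genes tested was -0.09. Fold changes are on the log2(RPKM + 1) scale, which understates the change of genes near or below 1 RPKM.

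**Figure D1:**
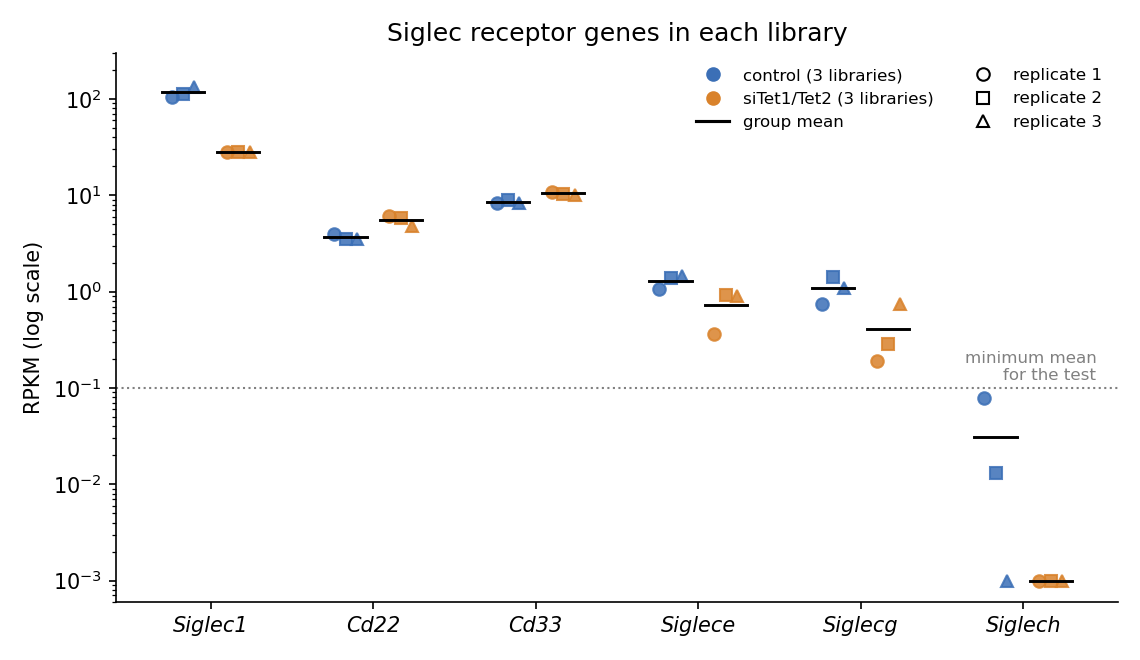
RPKM on a log scale of each Siglec receptor gene in the 3 control and the 3 siTet1/Tet2 libraries, with marker shape giving the replicate number, a bar at each group mean and a dotted line at the mean of 0.1 RPKM required for the test. Siglec1 stands at 103.9 to 134.0 RPKM in the control and 27.8 to 28.4 RPKM in the siTet1/Tet2 libraries, Cd22 and Cd33 are higher in every siTet1/Tet2 library, and Siglech is at or near the lowest listed value of 0.001.

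Siglec1 (ENSMUSG00000027322, GRCm38 chromosome 2, 131069220 to 131086765, minus strand) measured 103.9, 113.6 and 134.0 RPKM across the control libraries against 27.8, 28.4 and 28.1 RPKM across the Tet1/Tet2 siRNA libraries. Every siRNA library lay below every control library, as for 35.9% of all genes tested, and the siRNA libraries were nearly equal. The means were 117.2 ± 15.3 RPKM (SD, n = 3) and 28.1 ± 0.304 RPKM (SD, n = 3), a 4.17-fold difference. On the log2 scale the fold change amounted to -2.01 ± 0.09 (SE, adjusted p = 2.51e-06 by limma), and 1.23% of the genes tested had a more negative one. By an estimate of the depth, about 24098 to 27732 reads in the control and 6380 to 7008 reads in the siRNA libraries stood behind these values. Within each library, Siglec1 exceeded between 94.8% and 96.8% of the genes tested in the control group and between 79.2% and 79.7% in the siRNA group.

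The fall of Siglec1 was set beside the interferon-response, macrophage and stromal lists. These lists were chosen with earlier results of these data known. Of 20 listed interferon-response genes, 18 were found in the table. All 18 were lower and passed limma's test, against 29.8% of all genes tested, with a median log2 fold change of -3.69. The 3 with the largest change on the log2(RPKM + 1) scale were Irf7, a transcription factor of the interferon response, at -5.05, Ifit3 at -4.99 and Isg15, a ubiquitin-like modifier, at -4.40. Stat2, which transmits the signal of the interferon receptor, was at -2.13, beside the -2.01 of Siglec1. The 14 macrophage markers had a median log2 fold change of 0.20. The 3 lower ones were Fcgr1, a high-affinity antibody receptor that interferon is also known to induce, at -1.93, Aif1 at -0.50 and Mrc1, the mannose receptor, at -0.27, a call lost under median ratio scaling and quantile normalization (adjusted p up to 0.166 from limma). Centring on the macrophage markers gave 4 lower and 4 higher of them, but it makes their mean level equal in all libraries by construction. With each library centred on the macrophage markers, the log2 fold change of Siglec1 was -2.13 (adjusted p = 1.83e-06 from limma). The 11 stromal markers tested had a median log2 fold change of -2.48, with 9 lower and 1 higher. The parts of the interferon-response genes and of the stromal markers in the change of Siglec1 were not tested.

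**Figure D2:**
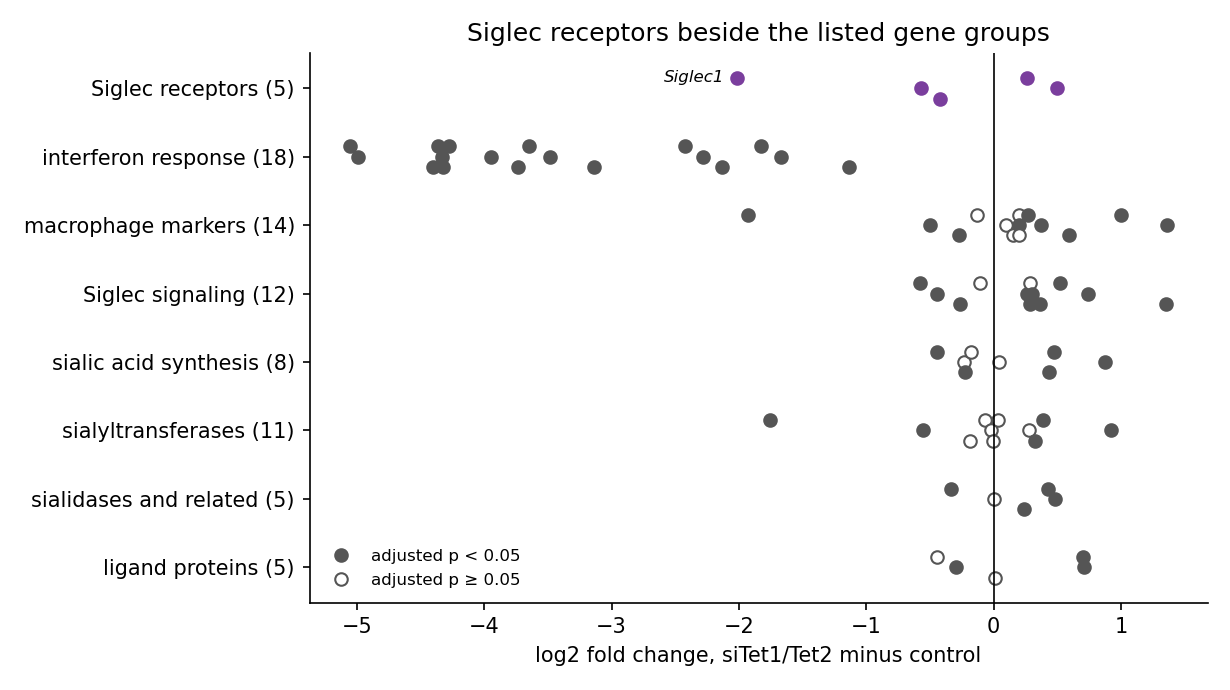
Log2 fold change on the log2(RPKM + 1) scale, siTet1/Tet2 minus control, of the 5 tested Siglec receptors and of the tested genes of 7 listed groups, with the number of genes in parentheses and filled points for an adjusted p under 0.05. Siglec1, at -2.01, lies within the range of the 18 interferon-response genes, whereas the other receptors lie between -0.57 and 0.50. The stromal markers, with a median of -2.48, are not drawn.

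Cd33, a founding member of the myeloid branch of the family, was the second most abundant receptor gene, with 8.31, 8.98 and 8.41 RPKM across the control libraries against 10.8, 10.3 and 10.2 RPKM across the siRNA libraries. The groups did not overlap, which was the case in 55.7% of all genes tested, and in 19.8% with the siRNA group higher. It lies on chromosome 7 (43524216 to 43544428, minus strand), and rose by 0.26 ± 0.07 (SE, adjusted p = 0.0213 by limma) on the log2 scale, a difference of 1.22 times between the means. The call was lost with each library centred on the macrophage markers (log2 fold change 0.14, adjusted p = 0.309) and with all libraries brought to an equal RPKM sum (0.21, adjusted p = 0.0835). It was also lost without control replicate 1 (0.24, adjusted p = 0.0584), without siRNA replicate 1 (0.23, adjusted p = 0.0843) and without siRNA replicate 2 (0.27, adjusted p = 0.0636).

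Cd22, the inhibitory co-receptor of the B cell antigen receptor, stood at 3.96, 3.52 and 3.48 RPKM across the control libraries against 6.14, 5.78 and 4.81 RPKM across the siRNA libraries. All siRNA libraries were above all control libraries, as for 19.8% of all genes tested, and the siRNA libraries spread more widely. The rise was 0.50 ± 0.10 (SE, adjusted p = 0.00539 by limma) on the log2 scale, or 1.53 times between the means of 3.65 ± 0.261 and 5.58 ± 0.687 RPKM (SD, n = 3). The B cell markers that define the usual home of this receptor were nearly absent. Of 8 listed, only Cd79b, a signaling chain of the B cell receptor, was expressed highly enough to be tested. Cd79b averaged 0.533 ± 0.317 RPKM (SD, n = 3) in the control and 1.14 ± 0.189 RPKM in the siRNA libraries (log2 fold change 0.50, adjusted p = 0.0217 from limma). The 8 markers summed to between 0.465 and 1.00 RPKM in the control and between 0.977 and 1.38 RPKM in the siRNA libraries, and their part in the rise of Cd22 was not tested. Cd22 (chromosome 7, 30865402 to 30880342, minus strand) shares exonic sequence with the antisense gene Gm29439 in the annotation, and since the use of strand is not given in the sources used here, reads of the 2 genes cannot be told apart.

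Siglece and Siglecg lie near Cd33 in the same cluster on chromosome 7, at 43651070 to 43660161 on the minus strand and 43408204 to 43418358 on the plus strand. Siglece, an inhibitory receptor of macrophages and neutrophils, gave 1.07, 1.38 and 1.45 RPKM across the control libraries against 0.365, 0.923 and 0.901 RPKM across the siRNA libraries. Every siRNA library lay below every control library, as for 35.9% of all genes tested, but siRNA replicates 2 and 3 came close to control replicate 1. The change was -0.42 ± 0.14 (SE, adjusted p = 0.0391 by limma) on the log2 scale, with about 74 to 87 reads behind each control value and 26 to 66 behind each siRNA value. The call was lost without control replicate 2 (-0.40, adjusted p = 0.109), control replicate 3 (-0.38, adjusted p = 0.0853) or siRNA replicate 1 (-0.26, adjusted p = 0.0906). It was lost as well with smaller pseudocounts, which also raised the size of the change (-0.83 with 0.1 and -0.93 with 0.01), without the filter, after median ratio scaling or quantile normalization, and with gene-wise variance, where the adjusted p from limma ranged from 0.0588 to 0.303.

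Siglecg, an inhibitory receptor known from B cells, had 0.739, 1.42 and 1.09 RPKM across the control libraries against 0.190, 0.289 and 0.741 RPKM across the siRNA libraries. The groups overlapped, as siRNA replicate 3 stood just above control replicate 1. It fell by 0.57 ± 0.16 (SE, adjusted p = 0.0218 by limma) on the log2 scale, on about 110 to 189 reads in the control and 29 to 105 reads in the siRNA libraries. Its means, 1.08 ± 0.343 and 0.407 ± 0.294 RPKM (SD, n = 3), differed 2.66-fold, so that Siglecg would also pass the 2-fold threshold on the plain ratio. The value grew to -1.33 and -1.57 with pseudocounts of 0.1 and 0.01 and to -0.92 with all libraries brought to an equal RPKM sum. The equal sum also rescales the values before the pseudocount of 1 is added, so the weight of the pseudocount differs there too. The call was lost without control replicate 2 (-0.46, adjusted p = 0.0768), siRNA replicate 1 (-0.46, adjusted p = 0.0788) or siRNA replicate 2 (-0.52, adjusted p = 0.079), after quantile normalization (-0.38, adjusted p = 0.0749), without the filter on low values (adjusted p = 0.239) and with gene-wise variance (adjusted p = 0.117).

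Siglech, a receptor of plasmacytoid dendritic cells that signals through the adaptor DAP12, was barely detected. It was listed at 0.079 RPKM in control replicate 1, at 0.013 RPKM in control replicate 2 and at 0.001 RPKM, the lowest listed value, in the other 4 libraries. By the depth estimate and the longest annotated transcript, 1 read on this gene is worth between 0.0113 and 0.0134 RPKM. The 2 values above the lowest thus stand for about 7 reads and 1 read. A difference between the groups was not detectable at this depth. Of the 5 plasmacytoid dendritic cell markers, Klk1 was listed at 0.001 RPKM in all 6 libraries and only Cox6a2 was tested, which went from 1.66 ± 0.374 to 0.836 ± 0.354 RPKM (SD, n = 3, log2 fold change -0.54, adjusted p = 0.0245 from limma). That call was lost after quantile normalization (-0.30, adjusted p = 0.225).

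**Figure D3:**
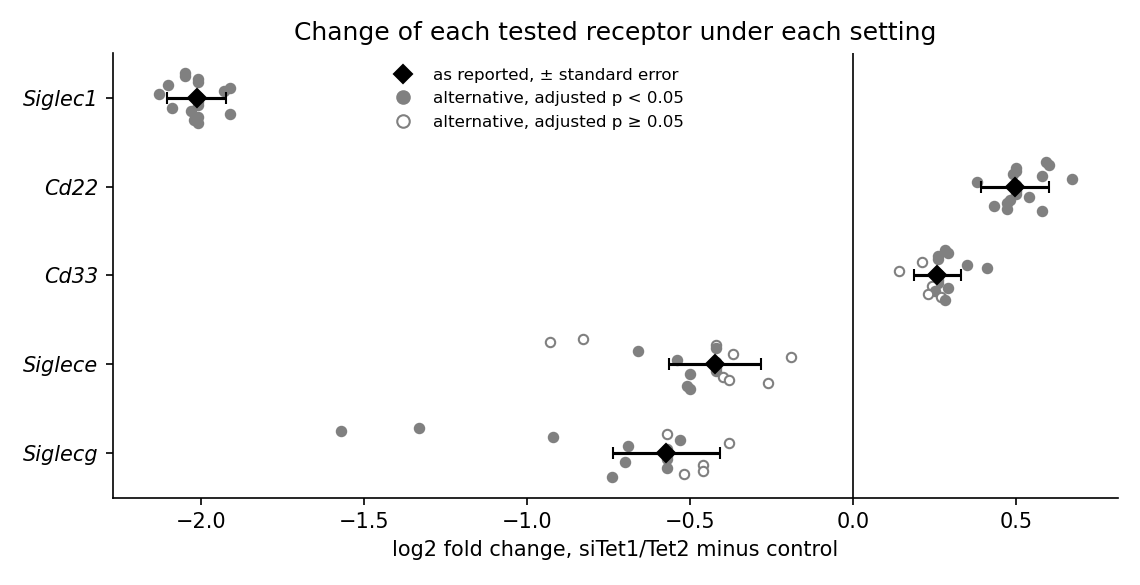
Log2 fold change on the log2(RPKM + 1) scale, siTet1/Tet2 minus control, of the 5 tested receptors, with black diamonds and standard errors for the values as reported and grey circles for the alternatives, filled where the adjusted p was under 0.05. No alternative crosses 0, and the circles of Siglec1 and Cd22 are all filled, whereas Cd33, Siglece and Siglecg each have open circles.

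The order of the levels was the same by group means in both groups, from Siglec1 through Cd33, Cd22, Siglece and Siglecg to Siglech. Siglece and Siglecg, neighbours in this order, overlapped in both groups, whereas the ranges of the others did not. The summed RPKM of the 6 genes was 118.1, 129.0 and 148.4 in the control libraries and 45.4, 45.7 and 44.7 in the siRNA libraries. Siglec1 alone made up between 88.0% and 90.3% of the sum in the control group and between 61.3% and 62.9% in the siRNA group. Without Siglec1 the sum of the other 5 genes was 14.2, 15.3 and 14.4 RPKM in the control and 17.5, 17.3 and 16.6 RPKM in the siRNA libraries, higher in each siRNA library. To test Siglec1 against the other tested receptors, the mean log2(RPKM + 1) of the other 4 was subtracted from that of Siglec1 in each library. This difference was 4.95 ± 0.167 (SD, n = 3) in the control and 3.00 ± 0.0731 (SD, n = 3) in the siRNA libraries, lower by -1.95, with an exact two-sided permutation p of 0.1, the smallest that 3 against 3 libraries allow.

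**Figure D4:**
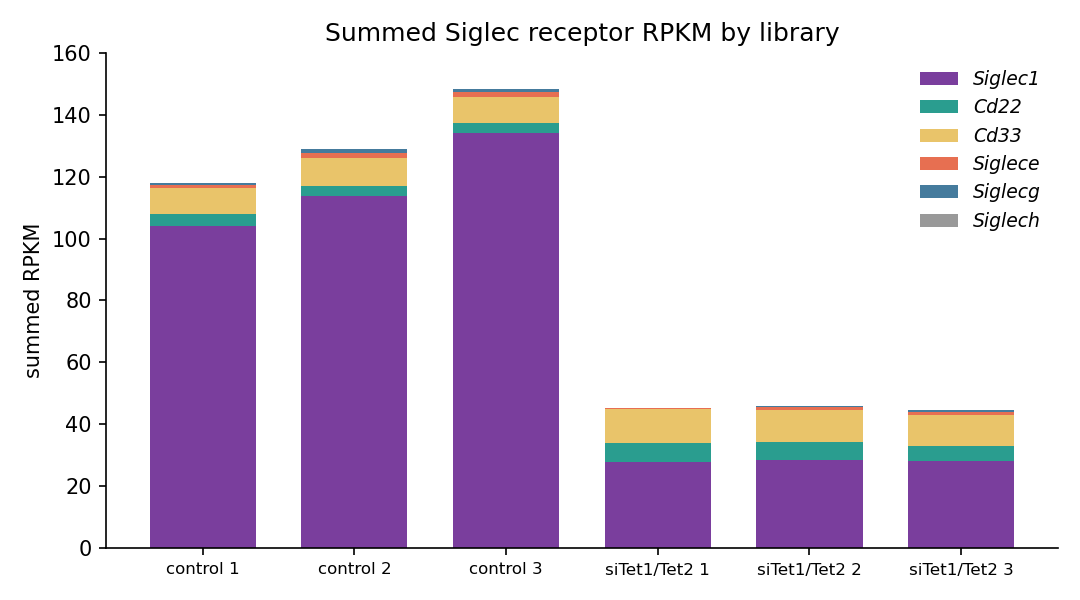
Summed RPKM of the 6 Siglec receptor genes in each of the 3 control and 3 siTet1/Tet2 libraries, stacked by gene from 0. The bars go from 118.1 to 148.4 RPKM in the control and from 44.7 to 45.7 RPKM in the siTet1/Tet2 libraries, and Siglec1 forms most of each.

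The promoters of 3 receptor genes on chromosome 7 are shown, those that changed and have a single RefSeq start, as the 250 bases before it on GRCm38.p6, 5′ to 3′ on the strand of the gene. They were searched on both strands for the core of the interferon response element (GAAA, any 2 bases, GAAA), for GAGGAA, the core bound by the myeloid factor PU.1, and for TTCNNNGAA, a STAT core. Capitals mark the matches. The windows are chr7:43533172-43533421 for Cd33, chr7:30879029-30879278 for Cd22 and chr7:43660162-43660411 for Siglece, all on the minus strand. Those of Cd33 and Cd22 lie inside the GENCODE genes, which reach to 43544428 and 30880342. Transcripts of these genes thus also start upstream of the windows, and the bases before those starts were not searched.
Cd33: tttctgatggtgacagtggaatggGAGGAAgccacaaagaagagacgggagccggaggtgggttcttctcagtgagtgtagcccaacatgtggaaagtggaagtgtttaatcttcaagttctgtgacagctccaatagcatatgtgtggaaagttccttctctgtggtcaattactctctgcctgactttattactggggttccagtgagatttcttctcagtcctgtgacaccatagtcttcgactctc
Cd22: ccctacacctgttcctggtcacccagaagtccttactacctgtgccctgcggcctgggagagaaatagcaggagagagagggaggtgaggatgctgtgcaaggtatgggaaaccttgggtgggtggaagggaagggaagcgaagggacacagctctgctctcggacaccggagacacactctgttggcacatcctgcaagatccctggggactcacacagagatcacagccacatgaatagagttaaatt
Siglece: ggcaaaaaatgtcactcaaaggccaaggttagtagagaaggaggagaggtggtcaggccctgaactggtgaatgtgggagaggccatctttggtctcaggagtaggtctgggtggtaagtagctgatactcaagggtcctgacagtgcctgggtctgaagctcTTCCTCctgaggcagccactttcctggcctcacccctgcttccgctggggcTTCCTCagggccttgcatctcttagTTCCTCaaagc
GAGGAA was found in Cd33, with its first letter 226 bases before the start, and its reverse complement in Siglece at 87, 36 and 11 bases. Over the 32851 promoters of the RefSeq table, 23.3% hold this core, 2.98% the interferon core and 7.02% the STAT core. The interferon core was in none (0) of the windows listed for Cd22, Cd33, Siglece, Siglecg and Siglech, and the STAT core was in that of Siglech, 123 bases before its start. Siglecg has 2 listed starts, of which the first window holds GAGGAA in reverse complement at 241 and 212 bases and the second no match. Siglec1 had no entry.

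Of the other Siglec genes, Mag, Siglecf and Siglec15 were listed and none passed the test (0 of 3, adjusted p from 0.102 to 0.225 from limma). Mag, a receptor of myelinating glia, averaged 0.692 ± 0.109 RPKM (SD, n = 3) in the control and 0.522 ± 0.167 RPKM in the siRNA libraries. Siglecf, which marks eosinophils and alveolar macrophages, was at 0.438 ± 0.0249 and 0.310 ± 0.0301 RPKM (SD, n = 3), with groups that did not overlap. Every siRNA library was below every control library for 35.9% of all genes tested. The eosinophil granule genes Prg2, Epx and Ear6 were listed at 0.001 RPKM in all 6 libraries, and Ccr3, the only one of 6 eosinophil markers tested, fell from 4.54 to 2.20 RPKM (adjusted p = 0.000266 from limma). Siglec15, a receptor of osteoclasts that pairs with DAP12, was at 0.0537 ± 0.0357 and 0.155 ± 0.0948 RPKM (SD, n = 3), or at most about 11 reads. Of 8 osteoclast markers, 5 were tested, of which 3 were higher and 2 did not pass. Of 10 granulocyte markers, 3 were tested, of which 2 were higher and 1 was lower. Among all genes tested, 14.7% were higher and 29.8% lower.

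The adaptors, kinases and phosphatases through which Siglecs signal were all expressed highly enough to be tested. Of the 12 genes, 7 were higher, 3 lower and 2 not called, and after centring on the macrophage markers 3 were higher and 4 lower. Before centring, 14.7% of all genes tested were higher and 29.8% lower. Tyrobp, which encodes DAP12, the activating adaptor of Siglec-H, rose from 567.6, 494.9 and 334.4 RPKM in the control libraries to 1246, 1207 and 1039 RPKM in the siRNA libraries (a log2 rise of 1.35 ± 0.18, SE, adjusted p = 0.000578 by limma). The groups were well apart, as the lowest siRNA library was far above the highest control library. Groups without overlap and with the siRNA group higher were found for 19.8% of all genes tested. Syk, the kinase recruited by that adaptor, rose by 0.74 on the log2 scale, and Inpp5d, the lipid phosphatase SHIP1, by 0.52. Both phosphatases that bind the inhibitory motifs were tested, and they moved apart. Ptpn6, encoding SHP1, had a log2 fold change of 0.26 (adjusted p = 0.0253 from limma), which did not pass after centring on the macrophage markers (adjusted p = 0.065), and Ptpn11, encoding SHP2, had one of -0.44 (adjusted p = 0.0017).

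The enzymes that make, attach and remove the ligand were examined next. The counts stand beside shares of 14.7% higher and 29.8% lower among all genes tested. Of 8 genes of sialic acid synthesis and turnover, 3 were higher and 2 lower, with 3 higher and 4 lower after centring on the macrophage markers and 3 higher and 0 lower after quantile normalization. Cmah, which hydroxylates sialic acid, had a log2 fold change of -0.44 (adjusted p = 0.012 from limma) and Gne, the first enzyme of synthesis, of -0.23 (adjusted p = 0.0421). Cmas, which activates sialic acid for transfer, rose from 61.1 ± 6.60 to 84.9 ± 3.70 RPKM (SD, n = 3), and Npl, which breaks sialic acid down, from 13.7 ± 2.00 to 26.0 ± 3.99 RPKM. Of 20 sialyltransferases 11 were tested, with 3 higher and 2 lower, or 1 higher and 3 lower after centring on the macrophage markers. St6gal1, which makes the sialic acid linkage that CD22 prefers, had 11.5, 11.4 and 11.8 RPKM across the control libraries against 22.3, 22.8 and 23.2 RPKM across the siRNA libraries (log2 fold change 0.92, adjusted p = 1.71e-05 from limma). These groups lay far apart compared with their spread, and 19.8% of all genes tested had every siRNA library above every control library. St3gal6, one of the enzymes that make the other linkage to galactose, which Siglec1 prefers, was at 5.91, 3.33 and 3.82 RPKM in the control and 0.359, 0.525 and 0.804 RPKM in the siRNA libraries (log2 fold change -1.76, adjusted p = 0.000135). Another enzyme of that linkage, St3gal5, which acts on a glycolipid, fell by 0.56, and St3gal1 had a log2 fold change of 0.39 that was not called after centring on the macrophage markers, whereas St3gal2, St3gal3 and St3gal4 did not pass the test (adjusted p from 0.489 to 0.988 from limma).

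Among 7 genes for sialidases, their partner, a sialic acid esterase and the acetyltransferase Casd1, 5 were tested, of which 3 were higher and 1 lower. Ctsa, the protective protein of the lysosomal sialidase Neu1, had a log2 fold change of 0.48 (adjusted p = 0.00553 from limma), Siae of 0.43, and the membrane sialidase Neu3 of -0.33, which was not called after quantile normalization (-0.10, adjusted p = 0.346). Centring on the macrophage markers left 2 higher and 1 lower. Of 6 sialylated proteins that Siglecs are known to bind or that carry much sialic acid, 5 were tested, with 2 higher and 1 lower. For both lists, the shares over all genes tested were 14.7% higher and 29.8% lower. Spn (CD43), described as a counter-receptor of Siglec1, rose from 0.395 ± 0.0259 to 1.31 ± 0.413 RPKM (SD, n = 3, adjusted p = 0.00173 from limma), and Selplg from 43.8 to 71.8 RPKM. Cd24a, whose glycans are bound by Siglec-G, had a log2 fold change of -0.30 (adjusted p = 0.0199), which was not called after quantile normalization. Ptprc (CD45), the pan-leukocyte phosphatase and a ligand of CD22, was at 52.6 and 53.0 RPKM (adjusted p = 0.949).

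The genes whose profile over the 6 libraries was most like that of Siglec1, by Pearson's r of log2(RPKM + 1) among 11066 genes averaging 1 RPKM or more, were Prr7, Erlec1, Ddx60, Trim30d and Tmem98, with r from 0.9992 to 0.9995. Pearson's r ignores the size of a change. At an r of 0.9993 each, Erlec1 went from 18.3 to 13.8 RPKM between the group means and Ddx60 from 16.8 to 2.57 RPKM. An r over 0.95 was reached by 1636 genes for Siglec1, 336 for Cd22, 401 for Cd33 and 41 for Siglece. For Cd22 the most alike were Npl, Steap3, Oxa1l, Ccrl2 and Fut11 (r from 0.992 to 0.996), for Cd33 Ermard, Rnf149, Pira1, Mr1 and Smad2 (r from 0.994 to 0.999), and for Siglece Inhba, Tbc1d10b, Degs2, Cnot3 and 3830406C13Rik (r from 0.984 to 0.996). Over 6 libraries these values describe the likeness and carry no test.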

How the data were processed

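RNA-seq of total RNA was performed on 3 control and 3 Tet1/Tet2 siRNA libraries. The authors trimmed adaptors, mapped paired-end reads to GRCm38, estimated abundance with DNASTAR Lasergene and deposited linear RPKM values (called FPKM in the methods), with 0.001 as the lowest value. The annotation release, use of strand and handling of multi-mapped reads are not given in the sources used here. The table's column of the authors' own p-values was not used.

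For 37 symbols listed more than once, the most abundant row was taken. Genes averaging 0.1 RPKM or more were compared on log2(RPKM + 1) with limma 3.58.1 in R 4.3.3 (eBayes with trend), two-sided, with Benjamini-Hochberg adjustment over 13266 genes, and changed means an adjusted p under 0.05. The fit was tested on simulated data with independent noise, where 200 of 13266 genes were moved up or down by 1 on the log2 scale. It recovered 180 of them and called 13 unchanged genes. In the real data 44.5% of genes were called, so the simulation does not measure the error of these calls. Depth, estimated in Python 3.11.15 as the read number at which low values of genes with 1 transcript come closest to whole reads, was 32400000 to 38600000 reads. Between 49.1% and 55.5% of those values lay within 0.1 of a whole read, so read numbers are approximate and no count test was run. Read numbers of a gene also rest on its longest GENCODE M21 transcript, which may differ from the length behind the deposited values.

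Replicate numbers are shared between groups, and the correlation of deviations from the group means was 0.149, 0.117 and 0.462 for replicates 1, 2 and 3, so a paired fit was added. Control 1 with siRNA 2 (0.332) and control 2 with siRNA 1 (0.205) correlated more than the same-numbered pairs 1 and 2, and no label says what a number stands for. Members and lists were chosen with earlier results of these data known. Named were the members, other Siglec genes, up to 3 largest changes of a list, and listed genes with a known role for a member. Symbols were matched as listed, and Adgre1 under its older symbol. Siglec5, Mx1 and Mx2 had no match. Gene positions are from GENCODE M21 and promoters from RefSeq. Alternatives were other pseudocounts, filters, scalings, variance models, the block, summed rows and each library left out. Some listed genes are not reported here by name.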

Additional observations from a re-analysis of the deposited data

How the results depend on the processing

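Siglec1 (log2 fold change from -2.13 to -1.91) and Cd22 (from 0.38 to 0.67) stayed on their side of 0 and were called by limma in all 18 alternatives. Cd33, Siglece and Siglecg kept their direction in every alternative that gave a value, and lost the call in 5 of 18, 9 of 18 and 6 of 17. Cd33 was at 0.21 with libraries brought to an equal sum and 0.14 centred on the macrophage markers, 0.35 with median ratio scaling and 0.41 after quantile normalization, and from 0.23 to 0.29 with one library left out. Siglece was at -0.83 and -0.93 with pseudocounts of 0.1 and 0.01, -0.42 without the filter and with gene-wise variance, -0.37 with median ratio scaling, -0.19 after quantile normalization, and from -0.51 to -0.26 with one library left out. Siglecg was at -0.57 without the filter and with gene-wise variance, -0.38 after quantile normalization, and from -0.74 to -0.46 with one library left out, and a mean of at least 1 RPKM removed it. The number of lower members, 3, became 1 without the filter, after quantile normalization and with gene-wise variance, and 1 to 3 with one library left out. The number of higher members, 2, became 1 with libraries brought to an equal sum or centred on the macrophage markers, and 1 to 2 with one library left out. The causes were not tested, except that smaller pseudocounts enlarge the change of low genes by construction. Bringing libraries to an equal sum also rescaled the values before the pseudocount of 1 was added, which changed its weight. Siglech was tested only without the filter (adjusted p = 0.843 from limma). The fit with the replicate block gave the same 3 lower and 2 higher members and changed no call, with an adjusted p of Siglece of 0.00501 and of Siglecg of 0.0054. The difference of Siglec1 from the other tested members stayed between -2.05 and -1.65, and was -1.95 in the pairs, with an exact p of 0.25, the smallest that 3 pairs allow. Over all genes the median log2 fold change was -0.09 as deposited, 0.06 after quantile normalization and -0.20 centred on the macrophage markers, so small changes are relative to the scaling. Low read numbers limit Siglece, Siglecg and Siglech.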
